A study of Mus musculus with 12 samples.

Results

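The cytosolic ribosomal protein genes were examined in a map of histone H3 trimethylated at lysine 4 (H3K4me3), made by chromatin immunoprecipitation and sequencing (ChIP–seq) of cardiomyocyte (CM) nuclei from adult mouse hearts. The members were the autosomal, protein-coding peaks named for a gene that begins with Rpl or Rps and a digit, or for *Rpsa*, *Rplp0*, *Rplp1* or *Rplp2*. Kinases, binding proteins and pseudogenes with similar names were left out. The rule gave 70 peaks of 15848 in the whole table, 1 for each of 70 genes, of which 29 encode proteins of the small and 41 proteins of the large ribosomal subunit. All 70 passed the filter on low values that left 15039 peaks for testing.

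CtrlCre mice (3 H3K4me3 libraries) were αMHC-Cre pos/+;Cpt1b +/+ and Cpt1bcKO mice (3 H3K4me3 libraries) were αMHC-Cre pos/+;Cpt1b fl/fl, so both genotypes carried the Cre recombinase, and the mice had a C57BL/6 background with littermate controls. Cre was driven by the αMHC promoter, which is active in heart muscle cells, and in Cpt1bcKO mice it removed exons of *Cpt1b*, which encodes a carnitine palmitoyltransferase of muscle, needed to bring long-chain fatty acids into mitochondria for oxidation. The animals were adult, without a more exact age in the sources used here, and nuclei positive for PCM1, a protein that marks CM nuclei, were taken by fluorescence-activated sorting.

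A ribosome is built from ribosomal RNA and a set of ribosomal proteins, most of them present as a single copy per ribosome, and the genes for these proteins are active in nearly every cell. Their mRNAs typically begin with a C followed by a run of pyrimidines, the terminal oligopyrimidine tract, through which the growth regulator mTOR adjusts their translation. H3K4me3 marks the region around the start of active genes. A few ribosomal proteins have paralogs with restricted use, the best known in muscle being *Rpl3l*, which is made in heart and skeletal muscle in place of the general protein *Rpl3*.

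Start sites of some member genes are shown first, chosen mostly to have a pyrimidine tract and so to show what it looks like. *Rps27l* and *Rpl3l* are set beside them, without a tract exactly at the annotated start. These start sites do not stand for all members, whose shares follow below. RefSeq windows on GRCm38, the build of the files, from 250 bases before to 50 after the start matched 51 of the 70 members. The stretches below run 5′ to 3′ from 30 bases before the annotated start through the first 20 bases of the transcript. Capitals mark the run of C and T that begins at the annotated start, or the start base alone where no such run of at least 5 begins there. The stretches lie at chr4:86857348-86857397 (minus strand) for *Rps6*, chr17:33955646-33955695 (minus) for *Rps18*, chr7:118116128-118116177 (minus) for *Rps15a*, chr14:18270967-18271016 (minus) for *Rpl15*, chr7:4792935-4792984 (plus) for *Rpl28*, chr11:114668550-114668599 (plus) for *Rpl38*, chr3:90213629-90213678 (minus) for *Rps27*, chr9:66946056-66946105 (plus) for *Rps27l* and chr17:24727796-24727845 (plus) for *Rpl3l*.
Rps6: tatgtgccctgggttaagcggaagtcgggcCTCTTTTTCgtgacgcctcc
Rps18: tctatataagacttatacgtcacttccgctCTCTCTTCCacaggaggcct
Rps15a: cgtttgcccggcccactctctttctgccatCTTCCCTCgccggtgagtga
Rpl15: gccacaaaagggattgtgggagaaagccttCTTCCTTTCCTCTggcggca
Rpl28: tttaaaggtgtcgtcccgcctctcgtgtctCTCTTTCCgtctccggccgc
Rpl38: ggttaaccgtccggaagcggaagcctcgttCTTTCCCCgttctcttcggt
Rps27: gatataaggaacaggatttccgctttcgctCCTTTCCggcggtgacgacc
Rps27l: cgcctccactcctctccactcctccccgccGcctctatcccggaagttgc
Rpl3l: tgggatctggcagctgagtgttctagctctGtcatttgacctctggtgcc

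In the 7 stretches with a tract, the C/T run was 7 to 13 bases long, the longest in *Rpl15*, a large-subunit protein. At the annotated start itself the paralogs *Rps27* and *Rps27l* differed, since *Rps27* began with a run of 7 and *Rps27l* began with a G. A C followed by at least 4 further pyrimidines did lie within 5 bases of the *Rps27l* start, but not of the *Rpl3l* start. *Rpl3l* also began with a G, and it shared the lack of a tract at the annotated start with most other members that had a window.

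Over the 51 windows, a C followed by at least 4 further pyrimidines stood exactly at the annotated start of 12 genes (23.5%), against 2.29% of the 8546 protein-coding genes with an assigned peak and a window and 2.51% of all 32851 windows. Such a tract lay within 5 bases of the start in 25 member windows (49.0%), against 19.8% and 18.3%. The 12 genes were *Rpl14*, *Rpl15*, *Rpl28*, *Rpl35*, *Rpl38*, *Rplp2*, *Rps10*, *Rps15a*, *Rps18*, *Rps21*, *Rps27* and *Rps6*.

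Short motifs were then searched as exact letters on both strands of the same windows. CCGGAAG, the core bound by ETS factors, was found in 20 member windows (39.2%), against 17.8% of the genes with a peak and 8.86% of all windows. AAGATGG, the core bound by YY1, was found in 8 (15.7%, against 6.86% and 6.34%). The pyrimidine stretch CTTTCC occurred in 23 (45.1%, against 25.3% and 26.6%), and CTCTTTCC, which contains it, in 6 (11.8%, against 2.93% and 3.12%). GGGCGG, the SP1 box, was found in 29 (56.9%), below the 68.6% of genes with a peak and above the 35.7% of all windows, and TATAAA in 4 (7.84%, against 6.55% and 13.6%). None of these 6 motifs matched in the *Rpl3l* window. A match describes letters only.

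The *Rpl3l* upstream sequence is given in full because this gene carried the one called difference between the genotypes. It lies at chr17:24727576-24727845 on the plus strand of GRCm38, runs from 250 bases before the annotated start through the first 20 transcribed bases, and has the start base in capitals. The window ends before the first base of the *Rpl3l* peak, which in this gene lay within the transcribed region.
Rpl3l: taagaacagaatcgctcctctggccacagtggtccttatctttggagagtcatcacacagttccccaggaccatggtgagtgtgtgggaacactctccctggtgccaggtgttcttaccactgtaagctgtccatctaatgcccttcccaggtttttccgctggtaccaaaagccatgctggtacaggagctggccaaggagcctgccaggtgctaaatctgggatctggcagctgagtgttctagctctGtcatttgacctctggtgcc

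The libraries held 763133 to 2766416 recovered counts in peaks, and the shallowest, CtrlCre 2, had a counting error of 15.6% at the median peak, against 8.36% in the deepest, Cpt1bcKO 2. Values are normalized counts, that is, counts divided by a size factor per library. Every difference is therefore relative to the other peaks of the same library. The study reported by western blot that the total level of H3K4me3 was reduced in Cpt1bcKO CM nuclei, and normalized counts do not carry such a change. A higher normalized value therefore need not mean more of the mark in absolute terms. The labels number the libraries without saying that each came from a separate animal, and p-values therefore measure the spread between these libraries. At the targeted gene, the *Cpt1b* peak held 428, 407 and 436 normalized counts in CtrlCre and 572, 689 and 568 in Cpt1bcKO (adjusted p = 0.00357, limma), which measures the mark and does not check the deletion of exons. All 10 listed CM markers had a tested peak, with summed values of 8244 to 9878 in CtrlCre and 6081 to 8917 in Cpt1bcKO. Of the markers of other cells, 1 of 6 fibroblast, 1 of 6 endothelial, 3 of 5 pericyte and smooth muscle and 0 of 6 immune genes had one. The summed pericyte and smooth muscle values were 140 to 217 in CtrlCre and 32 to 80 in Cpt1bcKO and did not overlap, while the fibroblast sums were 58 to 69 and 56 to 63 and the endothelial sums 39 to 91 and 31 to 51.

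H3K4me3 at the ribosomal protein genes was high and similar from gene to gene. On the scale of normalized counts per kilobase of peak, averaged over the 6 libraries, the 70 members had a median of 99.97 (interquartile range 86.8 to 118.7), against 60.5 (35.1 to 85.7) for all tested peaks and 70.8 (47.2 to 92.6) for protein-coding peaks. Of the 70, 68 lay above the median of all tested peaks, 55 above its 75th and 26 above its 90th percentile. The upper quartile was 1.37 times the lower one for the members, 1.36 times for mitochondrial ribosomal protein genes, 1.49 times for proteasome genes and 2.44 times for all tested peaks. Other genes of general cell function had like levels, with a median of 107.6 both for the 66 peaks of mitochondrial ribosomal protein genes (*Mrpl* and *Mrps*) and for the 32 peaks of proteasome subunit genes. The small-subunit genes had a median of 98.4 and the large-subunit genes one of 102.7.

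**Figure D1:**
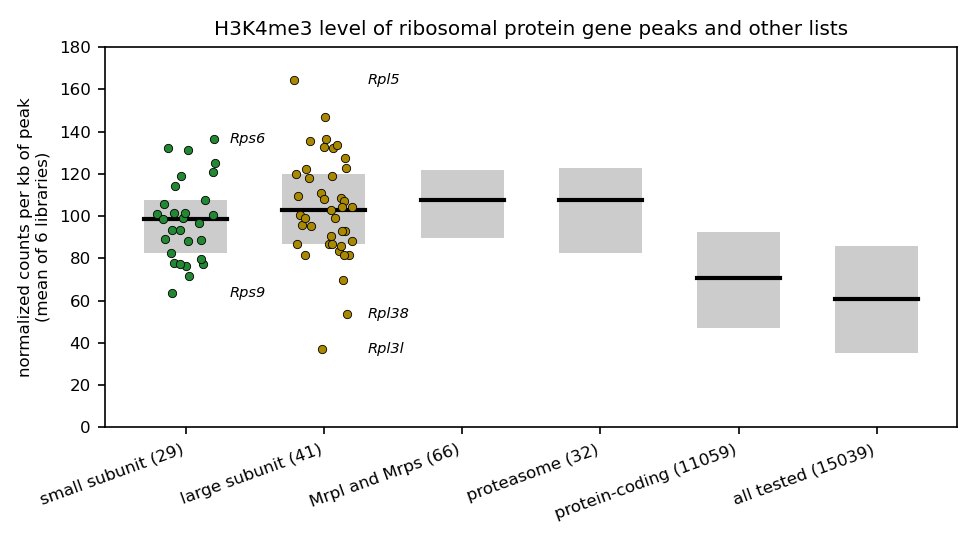
H3K4me3 level in normalized counts per kilobase of peak (y axis, mean of 6 libraries) for each small-subunit (green) and large-subunit (gold) member and for other gene lists, with the number of peaks in parentheses. Grey boxes span the interquartile range and black lines mark the median, 98.4 and 102.7 for the subunits and 60.5 for all tested peaks, and *Rpl3l* is the lowest member at 36.9.

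*Rpl5* had the highest level per kilobase at 164.6, followed by *Rpl11* at 146.8, *Rpl19* at 136.7, *Rps6* at 136.5 and *Rpl4* at 135.5. *Rpl5* and *Rpl11* encode the proteins that carry the 5S ribosomal RNA into the large subunit and that can hold the p53 regulator MDM2. Over the libraries *Rpl5* spanned 147.7 to 179.8 and *Rpl11* 128.8 to 163.2 per kilobase, so these neighbours in the order overlapped. *Rps6*, a target of the S6 kinases, held 239, 244 and 259 normalized counts in CtrlCre and 278, 268 and 252 in Cpt1bcKO over a peak of 1880 bases.

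The lowest level per kilobase was that of *Rpl3l* at 36.9, followed by *Rpl38* at 53.4, *Rps9* at 63.7 and *Rpl3* at 69.5. The last 3 peaks were wide (2701, 2829 and 2278 bases), and a level per kilobase divides by width. Undivided, their mean values were 144.3, 180.3 and 158.3, and that of *Rpl3l* was 75.5, against a member median of 181.7. *Rpl3l* stood at the 26.9th percentile of all tested peaks, and the next member, *Rpl38*, at the 43.3rd. In CtrlCre alone the order was different at its end, with *Rpl38* lowest at 48.7 and *Rpl3l* next at 55.1 ± 10.3 (SD, n = 3), close to *Rps9* at 55.6 ± 6.86. The 3 genes therefore did not differ beyond the spread between control libraries. In Cpt1bcKO *Rpl3l* was lowest at 18.7 ± 7.13 per kilobase.

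The peaks had a median width of 1862 bases, against 1514 for all tested peaks. Taking the quartiles of all tested peaks as limits, 15 members were broad (over 2222 bases), 54 were intermediate and 1 was narrow (under 1030 bases). Broad peaks made up 21.4% of the members and narrow ones 1.43%, whereas the limits give broad and narrow peaks equal shares of all tested peaks. The widest were those of *Rps2* (5272 bases), *Rpl35* (5247) and *Rps14* (3150), and the narrowest those of *Rpl6* (856), *Rplp0* (1030) and *Rpl27* (1108).

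Most of each peak lay downstream of the start. From the gene start given in the files, the median peak reached 558 bases upstream and 1267 bases downstream, and 68 of 70 reached further downstream than upstream. The summit lay downstream in 69 of 70 (98.6%), against 82.8% of protein-coding peaks, at a median of 273.5 bases, and 67 summits were 100 to 700 bases downstream. *Rps2* was the one member with a summit upstream, by 362 bases. The summits farthest downstream belonged to *Rps10* (1578 bases) and *Rpl3l* (831 bases). In 4 members the peak did not contain the start given in the files, beginning 957 bases downstream in *Rps10*, 56 in *Rpl3l*, 47 in *Rpl27* and 2 in *Rps3a*. Against GENCODE vM21 gene models, a median of 37.9% of the peak was exonic and 26.9% intronic in its own gene, and the *Rpl3l* peak was 12.2% exonic and 87.8% intronic. Ribosomal protein exons have near-identical pseudogene copies and only uniquely aligned reads were kept, so levels over exons are uncertain to an unknown degree.

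**Figure D2:**
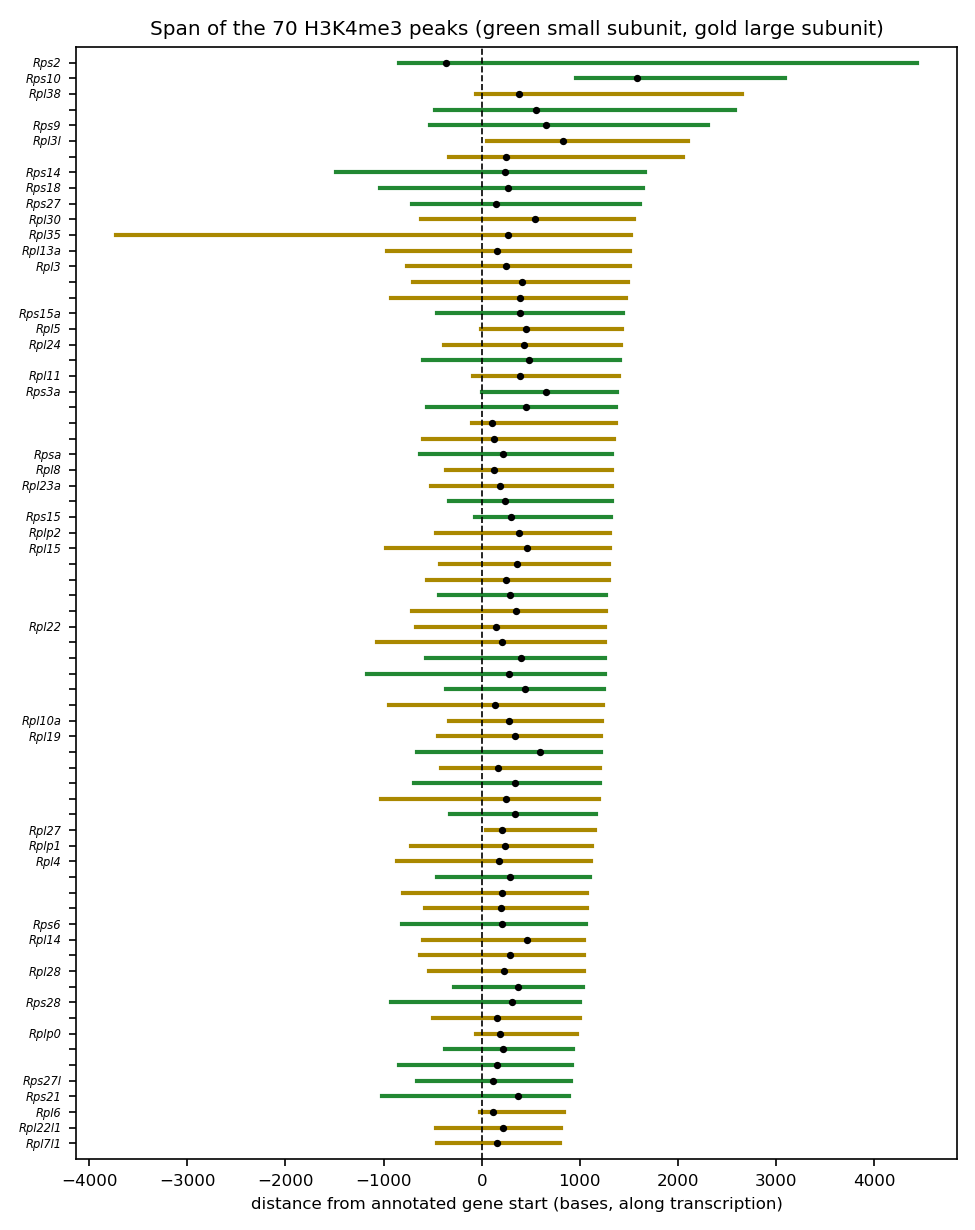
Span of each of the 70 peaks (horizontal lines, green for small and gold for large subunit) and its summit (black point) by distance in bases from the gene start given in the files (x axis, positive along transcription), ordered by downstream reach, with labels for the 39 genes named in the text. Summits lie downstream of the start in all peaks but that of *Rps2*, and the *Rps2* and *Rpl35* peaks are the longest.

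Several peaks were shared with a neighbour. In 9 members (12.9%) the peak also contained the start of a protein-coding gene on the opposite strand, such as *Ndufb10* beside *Rps2*, *Arpc5l* beside *Rpl35*, *Vps52* beside *Rps18*, *Nkiras1* beside *Rpl15* and *Ndufa7* beside *Rps28*. The share was 10.6% among protein-coding peaks and 34.8% among the *Mrpl* and *Mrps* peaks. The values of these peaks cannot be divided between their genes. Small nucleolar RNAs, which guide the modification of ribosomal RNA, lay within 27 of the 70 member genes (38.6%), against 1.87% of protein-coding peaks, with 5 in *Rpl4* and 4 in *Rpl13a*.

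Across the genotypes *Rpl3l* fell and no other member passed the test. The *Rpl3l* peak (chr17:24727876-24729921, mm10, plus strand) held 99, 102 and 137 normalized counts in the CtrlCre libraries and 40, 52 and 23 in the Cpt1bcKO libraries. The genotypes did not overlap, since the highest Cpt1bcKO value lay below the lowest CtrlCre value. The means were 113 ± 21.1 and 38.3 ± 14.6 (SD, n = 3 each), a log2 difference of -1.59 with a standard error of 0.23 (limma on log2(value + 1), adjusted p = 0.000177 over all 15039 tested peaks). These values rested on 118, 44 and 146 recovered counts in CtrlCre and 35, 80 and 32 in Cpt1bcKO. Beside 1 of 70 members, 2.93% of all tested peaks had an adjusted p under 0.05, and 1.82% were called lower. The call held under every alternative of the fit, with log2 differences of -1.27 to -1.84 as single libraries were left out. Pericyte and smooth muscle marker sums, from cells that the sort for PCM1 should remove, were lower in Cpt1bcKO without overlap, as given above. The CM sums, 8244 to 9878 in CtrlCre and 6081 to 8917 in Cpt1bcKO, overlapped, as did the fibroblast and endothelial sums. The part of any of these cells in the *Rpl3l* value was not tested.

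The neighbouring peaks of *Rpl3l* on chromosome 17 did not pass the test. The next peak upstream, 3379 bases away, was that of another member, *Rps2*, with 443, 446 and 484 normalized counts in CtrlCre and 468, 512 and 435 in Cpt1bcKO (log2 difference 0.04, SE 0.10, adjusted p = 0.924, limma). The next peak downstream, 6158 bases away, belonged to *Msrb1*, a methionine sulfoxide reductase, with 142, 107 and 160 against 133, 156 and 156 (log2 difference 0.14, SE 0.13, adjusted p = 0.760, limma). Of the other peaks within 50000 bases, *Gfer*, *Tbl3* and *Hs3st6*, the log2 differences were 0.15, 0.19 and 0.19, with adjusted p of 0.711, 0.642 and 0.868. In each of these 5 peaks the values of the genotypes overlapped.

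*Rpl3*, the general counterpart of *Rpl3l*, moved the other way in value without passing the test. Its peak (chr15:80081840-80084118, minus strand) held 151, 128 and 151 normalized counts in CtrlCre and 172, 178 and 170 in Cpt1bcKO, which did not overlap (log2 difference 0.28, SE 0.11, adjusted p = 0.253, limma). The ratio of *Rpl3l* to *Rpl3*, both per kilobase, was 0.876 ± 0.141 in CtrlCre and 0.245 ± 0.0882 in Cpt1bcKO (SD, n = 3 each). On the log2 scale the ratios were -0.45, -0.17 and 0.02 in the control libraries and -1.95, -1.62 and -2.73 in the knockout libraries, again without overlap.

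For the other paralog pairs the ratios of the genotypes differed by less than their SD. *Rpl22l1* over *Rpl22* was 1.43 ± 0.232 per kilobase in CtrlCre and 1.36 ± 0.156 in Cpt1bcKO. *Rps27l* over *Rps27* was 1.43 ± 0.151 and 1.43 ± 0.213. *Rpl22l1* itself held 159, 133 and 143 against 153, 174 and 143 normalized counts, and *Rps27l* 203, 216 and 193 against 216, 223 and 192, so both overlapped between genotypes. *Rpl7l1* had 109, 86 and 86 against 125, 115 and 91, while *Rpl7* had no peak under its own name. No peak was assigned to the paralogs *Rpl10l* and *Rpl39l*.

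**Figure D3:**
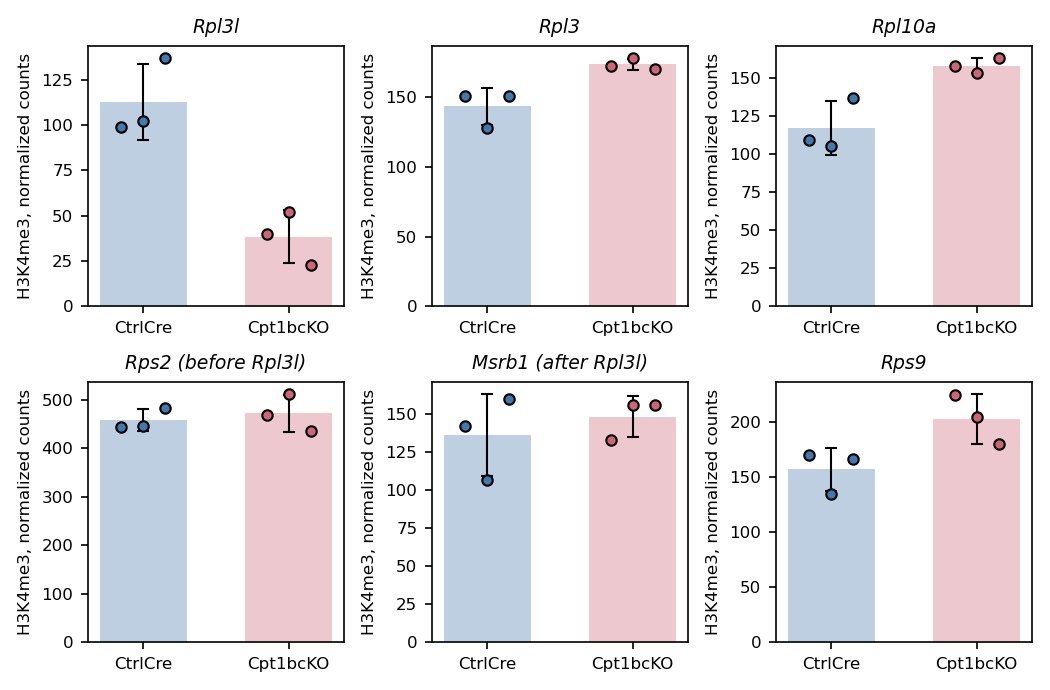
Normalized H3K4me3 counts (y axes, from 0) at the peaks of *Rpl3l*, *Rpl3*, *Rpl10a*, *Rps9* and the neighbours of *Rpl3l* on the chromosome, *Rps2* and *Msrb1*. Points are the 3 libraries of each genotype in the order of their numbers, bars the mean and error bars the SD, and the 3 Cpt1bcKO values of *Rpl3l* (23 to 52) lie below its 3 CtrlCre values (99 to 137).

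The other 69 members had small differences, mostly towards higher values in Cpt1bcKO relative to the other peaks of a library. Log2 differences ran from -0.16 to 0.44 among them, and over all 70 members the median was 0.11 (interquartile range 0.05 to 0.20), against 0.01 (-0.14 to 0.14) over all tested peaks and 0.02 over protein-coding peaks. The value was higher in Cpt1bcKO at 64 of 70 members (91.4%), against 51.2% of all tested peaks. An unadjusted p under 0.05 with a higher value was found for 13 members, where the background was 5.84% of all tested peaks, and with a lower value for 1, where it was 6.98%. The 3 values of Cpt1bcKO all exceeded those of CtrlCre at 14 members, with a background of 7.80%, and lay below them at 1, with a background of 8.46%. None of the higher values passed the adjusted test, so these counts describe the members and single out none.

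*Rpl10a*, whose protein sits at the stalk through which transfer RNA leaves the ribosome, came closest to the threshold. It held 109, 105 and 137 normalized counts in CtrlCre and 158, 153 and 163 in Cpt1bcKO, without overlap (117 ± 17.4 and 158 ± 5, log2 difference 0.44, SE 0.12, adjusted p = 0.0529, limma). *Rps9*, a small-subunit protein with a part in the accuracy of decoding, held 170, 135 and 167 against 225, 205 and 180 (log2 difference 0.37, SE 0.12, adjusted p = 0.104, limma). All 3 control values were the lower ones at both genes.

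A further 6 members had an unadjusted p under 0.05 and no overlap, 1 of them being *Rpl3*. *Rps15* of the small subunit held 141, 133 and 172 normalized counts against 182, 186 and 173, so that its closest values were 1 count apart. *Rpl23a*, which lies at the exit of the peptide tunnel, held 148, 153 and 134 against 194, 173 and 160. *Rpl15* held 227, 216 and 205 against 257, 259 and 243 in a peak it shares with *Nkiras1*. The adjusted p was 0.258, 0.275 and 0.295 for these genes (limma), and none of them passed.

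*Rps28* held 156, 130 and 151 normalized counts against 176, 187 and 158 in a peak it shares with *Ndufa7*. *Rplp1*, a protein of the acidic stalk that recruits elongation factors, held 169, 149 and 155 against 179, 187 and 186. The other stalk proteins overlapped between genotypes, with 94, 91 and 74 against 99, 86 and 93 for *Rplp0* and 183, 163 and 196 against 184, 216 and 170 for *Rplp2*. *Rpsa*, which is also known as a laminin receptor, held 162, 167 and 170 against 163, 186 and 198, with overlap.

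Other members with an unadjusted p under 0.05, among them *Rpl8*, *Rpl24* and *Rpl38*, had overlapping values, and 5 members without overlap had a larger p. Among the 5 members with the highest levels, *Rpl5* held 211, 235 and 237 against 250, 257 and 221 (log2 difference 0.09). *Rpl4* held 254, 235 and 276 against 275, 295 and 278 (0.15) and *Rpl19* 220, 244 and 222 against 219, 244 and 217 (-0.01), while *Rps6* and *Rpl11* had log2 differences of 0.10 and 0.09, and all 5 overlapped between genotypes. Besides *Rpl3l*, 5 members had a lower value in Cpt1bcKO, of which *Rpl30* was lowest with 218, 249 and 214 against 196, 222 and 192 (log2 difference -0.16, SE 0.10, adjusted p = 0.582, limma), with overlap. The small-subunit genes had a median log2 difference of 0.13 with 28 of 29 higher, and the large-subunit genes one of 0.10 with 36 of 41 higher. The 27 members with a small nucleolar RNA had a median of 0.10 and the other 43 one of 0.11.

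**Figure D4:**
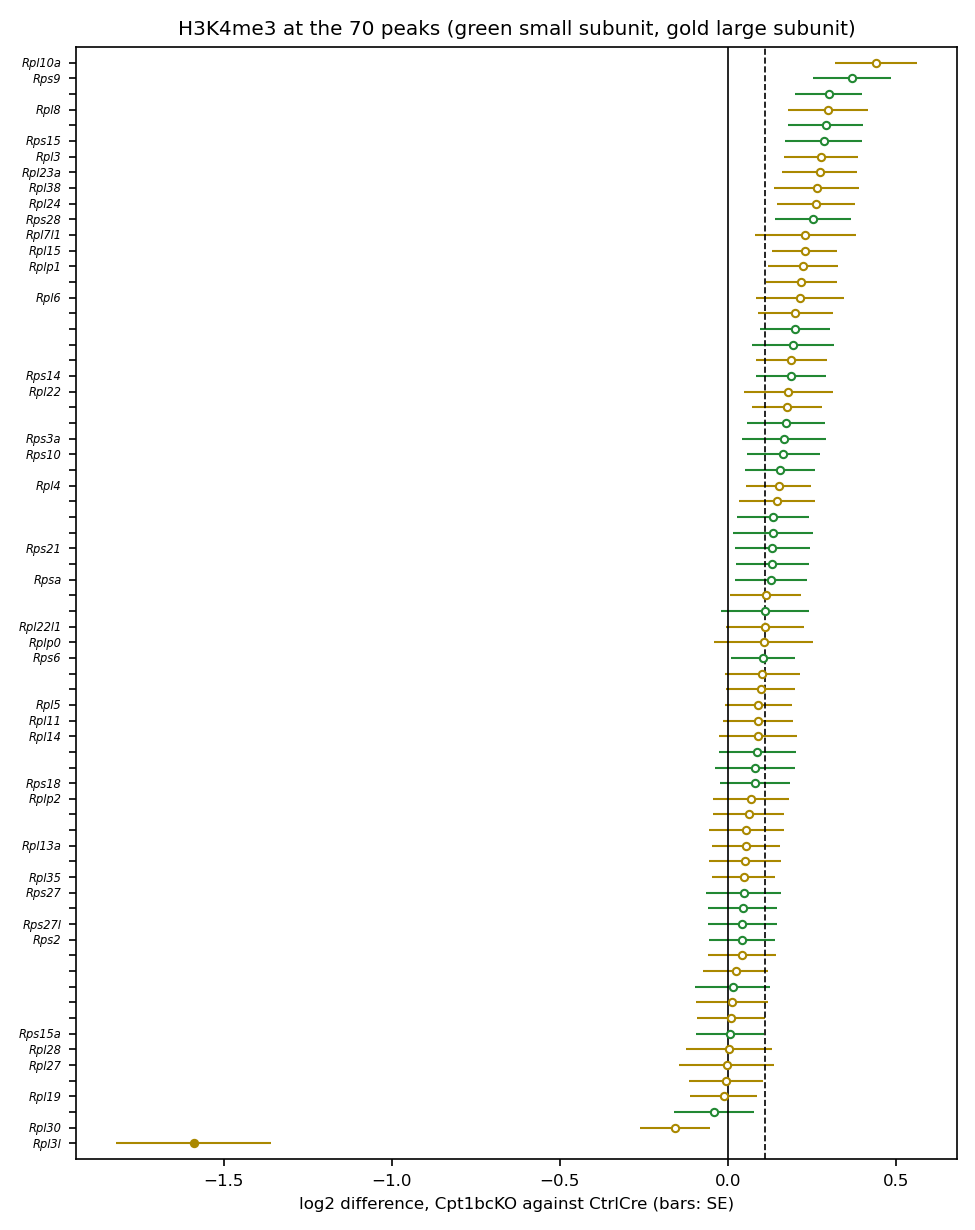
Log2 difference of Cpt1bcKO against CtrlCre (x axis, bars are standard errors of the limma fit) for each of the 70 members, ordered by value and labelled for the 39 genes named in the text, in green for the small and gold for the large subunit. The filled point is *Rpl3l* at -1.59, the only adjusted call, open points are the other 69, and the dashed line is the median of 0.11.

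The small differences were not carried evenly by the libraries. Each member's log2 value was set against its own mean over the 6 libraries, and the median over the 70 members was -0.06, -0.11 and -0.0027 in CtrlCre 1 to 3 and 0.08, 0.14 and -0.01 in Cpt1bcKO 1 to 3. The library Cpt1bcKO 3 thus lay below CtrlCre 3, and the genotypes overlapped at this level. Members above their own mean numbered 16, 21 and 34 of 70 in the CtrlCre libraries and 53, 64 and 31 in the Cpt1bcKO libraries. Without Cpt1bcKO 2, which is also the deepest library, the count of higher members with an unadjusted p under 0.05 went from 13 to 4 and 19 of 70 members had a lower value. Without CtrlCre 2, the shallowest, the count was 7, and without Cpt1bcKO 1 it was 5. The part of depth in these values was not tested.

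Related lists give the setting. The 66 *Mrpl* and *Mrps* peaks had a median log2 difference of 0.01 with 36 higher, and the 32 proteasome peaks one of -0.0050 with 14 higher, and in both lists no peak had an adjusted p under 0.05. In the same 2 lists Cpt1bcKO 3 was the lowest library, at -0.09 and -0.09 relative to the mean of the 6, and Cpt1bcKO 2 the highest, at 0.09 and 0.06. The genes of ribosome biogenesis (42 peaks of 41 genes, of 56 listed) had a median of 0.14 with 34 higher and no adjusted call. Of these peaks 6 had a higher value with an unadjusted p under 0.05, where the background was 5.84% of all tested peaks. The translation factor genes (35 peaks of 34 genes, of 40 listed) had a median of 0.07 with 23 higher and no adjusted call. Whether these lists differ from each other was not tested.

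**Figure D5:**
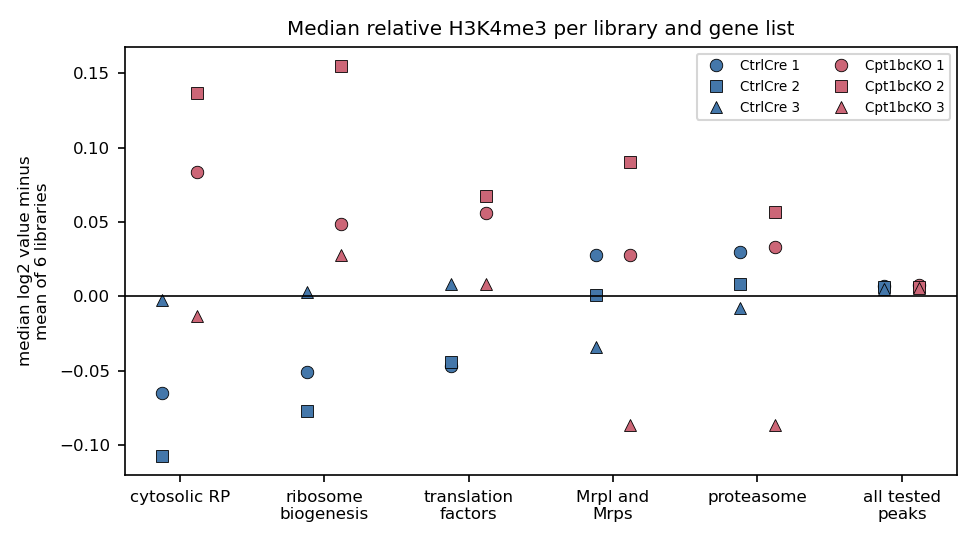
Median over each gene list of the log2 value minus its mean over the 6 libraries (y axis), for each CtrlCre (blue) and Cpt1bcKO (red) library, with symbols for library numbers 1 to 3. For the cytosolic ribosomal protein (RP) genes Cpt1bcKO 2 is highest at 0.14, CtrlCre 2 lowest at -0.11, and Cpt1bcKO 3 at -0.01 falls among the control libraries.

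Of the genes that signal growth to the ribosome, 1 of 20 peaks was called, where the background was 2.93% of all tested peaks. *Myc*, which encodes a transcription factor that drives ribosome production, held 385, 358 and 356 normalized counts in CtrlCre and 466, 544 and 530 in Cpt1bcKO, without overlap (log2 difference 0.48, SE 0.10, adjusted p = 0.00477, limma). The median of this list was 0.02 with 11 of 20 higher. An unadjusted p under 0.05 was found for 2 higher peaks and 1 lower peak, where the backgrounds were 5.84% and 6.98%.

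A further 7 genes encode ribosomal components but lie on the X chromosome or carry other names. Their peaks, among them *Fau*, *Rack1*, *Rpl10*, *Rpl36a*, *Rpl39* and *Rps4x*, had a median log2 difference of 0.19 with 7 of 7 higher and no adjusted call. Of these, *Rpl10*, *Rpl36a*, *Rpl39* and *Rps4x* lie on the X chromosome. The sex of the animals did not enter the fit, and its part in the X-linked values was not tested. *Rpl39*, a small protein of the peptide tunnel, held 106, 102 and 118 normalized counts against 142, 138 and 132, without overlap (log2 difference 0.34, SE 0.12, adjusted p = 0.173, limma). *Rack1*, a signalling scaffold on the small subunit, held 281, 274 and 260 against 314, 348 and 293, also without overlap.

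GENCODE vM21 lists 81 autosomal protein-coding genes that meet the naming rule, of which 70 are the members and 11 had no peak under their own name. The starts of 7 of the 11 lay in a peak named for a neighbour, namely *Rpl7* (in the *Rdh10* peak), *Rpl12* (*Lrsam1*), *Rpl18* (*Sphk2*), *Rpl35a* (*Lmln*), *Rpl36al* (*Mgat2*), *Rps25* (*Trappc4*) and *Rps27a* (*Clhc1*). In 6 of these 7 the value was higher in Cpt1bcKO, with a median log2 difference of 0.08. The peak over the *Rpl12* start, singled out after its values were seen, rose from 135, 98 and 148 normalized counts to 158, 201 and 183 (log2 difference 0.52, SE 0.14, adjusted p = 0.0385, limma), and it contains the start of *Rpl12* while bearing the name of the ubiquitin ligase gene *Lrsam1*. No peak lay over the starts of *Rpl10l*, *Rpl39l*, *Rpl41* and *Rps27rt*, and for *Rpl41* the nearest peak, named *Zc3h10*, began 143 bases away.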

How the data were processed

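According to the submitters' processing notes and the study's methods, the authors trimmed reads (Trimmomatic 0.39), aligned them to mm10 (STAR 2.6.1d, unique and unspliced), removed duplicates (Picard 2.21.7), called peaks with MUSIC against input, merged them and assigned genes within 5000 bases. The values the authors deposited per library are DESeq2 1.26.0 normalized counts rounded to whole numbers, a score on a linear scale. Together with the deposited genotype means, an unrounded signal, they gave whole counts for 100% of 15848 peaks (sums matched within 1e-05), used for depth and for 1 alternative. The deposited fraction of each peak in the gene body enters no comparison, and the authors' fold changes and p-values in the table were not used. The 3 input libraries of each genotype have no column in the table and were not used.

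Peaks with a mean of at least 10 (15039, with 809 left out) were tested with limma 3.58.1 (R 4.3.3, trend) on log2(value + 1), genotype only, two-sided, with Benjamini-Hochberg adjustment over all of them. Fold changes on this scale understate those of low peaks. The fit was tested on simulated counts with 200 changed peaks, drawn from all tested peaks and not from the members alone. The simulated spread was set alike for every peak and was not estimated from these libraries. Its rates therefore need not hold for the members or the real libraries. In the simulation the fit recovered 27% of the changes of 1.5-fold and 76% of those of 2-fold, and 1.90% of its calls were false. A member without a call can therefore still differ. The members and gene lists were chosen with earlier results of these data known. Named members were those with an adjusted call or with an unadjusted p under 0.05 and no overlap, the 5 highest and 5 lowest levels, the 3 widest and 3 narrowest peaks, paralog pairs, *Rplp0* to *Rplp2* and *Rpsa*; other genes were named after their values were seen. Some items are not reported here by name, though they count in the totals. Coordinates are as the files give them, and sequences are RefSeq's (GRCm38). Alternatives were other pseudocounts, filters and scalings, G+C correction, a replicate block, voom on recovered counts, 1 peak per gene, no paralogs and leaving out each library.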

Additional observations from a re-analysis of the deposited data

How the results depend on the processing

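The *Rpl3l* call held under every alternative, as did the direction of the members' median log2 difference (0.10 to 0.12 under other settings, 0.08 to 0.16 as single libraries were left out, 0.11 in the main fit). Adjusted calls among the members numbered 2 with a pseudocount of 5 and 2 with G+C correction (*Rpl10a* and *Rpl3l* in both), 2 with the replicate block and G+C correction together (*Rpl3l* and *Rps9*), and 0 without paralogs, which removes *Rpl3l* itself and leaves 0 members with an unadjusted p under 0.05 and a lower value. As single libraries were left out, adjusted calls ranged from 1 to 3 (3 without CtrlCre 3, *Rpl10a* among them), higher members with an unadjusted p under 0.05 from 4 to 15, the share of lower members from 4.29% to 27.1%, the median level per kilobase from 97.6 to 100.7, and calls among ribosome biogenesis genes from 0 to 1. Samples with the same replicate number did not all deviate together (correlations 0.0759, -0.0812 and 0.105), and 3 of 6 libraries correlated best with their own number, so the numbers were not taken to pair the samples; a replicate block gave 1 adjusted call, 12 higher and 1 lower with an unadjusted p under 0.05, a median of 0.11 and 8.57% lower, with 0 calls in the *Mrpl* and *Mrps*, biogenesis, translation factor and outside-the-rule lists and 1 in the growth list. Over all peaks the block gave 370 calls, against 441.

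Directions changed at 7 named members, with main log2 differences of -0.01 (*Rpl19*), -0.0044 (*Rpl27*), 0.07 (*Rplp2*), 0.04 (*Rps2*), 0.05 (*Rps27*), 0.04 (*Rps27l*) and 0.18 (*Rpl22*), the last without CtrlCre 2. With voom the log2 difference of *Rpl19* was 0.0098 and that of *Rpl27* 0.025. As single libraries were left out it ranged from -0.067 to 0.034 for *Rpl19*, -0.0096 to 0.31 for *Rpl22*, -0.21 to 0.15 for *Rpl27*, -0.026 to 0.15 for *Rplp2*, -0.019 to 0.098 for *Rps2*, -0.081 to 0.14 for *Rps27* and -0.00096 to 0.11 for *Rps27l*. The cause was not tested. Depth limits the low peaks most, since in CtrlCre 2 a peak of 3 counts corresponds to 6.97 normalized counts and in Cpt1bcKO 2 to 1.95.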
